A study of Mus musculus with 8 samples.

Results

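The protein tyrosine phosphatase genes examined here were the 30 mouse genes whose symbol, in the nearest-gene column of any of 6 anti-IRF5 peak lists, began with Ptpr, Ptpn or Ptp4a followed by further letters or digits. They were 30 of the 20824 gene symbols that those lists named. The symbols fell into 14 Ptpr genes, 13 Ptpn genes and 3 Ptp4a genes. Ptp4a1 has 2 gene identifiers, which were joined. By symbol and RefSeq biotype, 11 of the 14 Ptpr symbols were taken to code for a protein of the receptor phosphatase family. Whether each is an active enzyme was not checked. Of the others, Ptprcap codes for a small protein that binds CD45, Ptprtos is a long non-coding RNA, and RefSeq lists Ptprv as a transcribed pseudogene in mouse. A gene enters these lists only if a peak lies nearest to it in at least 1 list, so members without any peak were not seen here.

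The study mapped binding of IRF5, a transcription factor that acts downstream of Toll-like receptors, by CUT&Tag, in which an antibody guides the cutting enzyme Tn5 to the bound DNA. The cells were macrophages grown from the bone marrow of wild-type mice, given either PBS as control or CpG, DNA with unmethylated CG dinucleotides that is sensed by TLR9. The dose, the duration, the age and the sex were not stated, and the antibody named in the study's design was ab21689 of abcam. There were 2 anti-IRF5 libraries per condition, called control 1, control 2, CpG 1 and CpG 2 below, and 4 IgG samples that were not analysed here. Nothing states whether the libraries of 1 condition came from separate animals or cultures, so the spread between them may be technical. The cells were measured in bulk, so binding in fewer cells and weaker binding per cell cannot be told apart.

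The 4 lists held 29226, 37315, 13553 and 25851 peaks, in the order control 1, control 2, CpG 1, CpG 2, which is kept for every set of 4 values in the text. CpG 1 was the shortest list and stood apart from CpG 2. Macrophage markers carried peaks at their promoters in 7, 8, 4 and 7 of the 9 markers named in the lists, with Adgre1, Cd68 and Msr1 called in all 4. The same was true of 0, 2, 1 and 1 of 5 T and NK cell markers, 0 of 3 B cell markers in every library, and 0, 2, 0 and 1 of 7 neutrophil markers. Only markers named in the lists were counted. These were 9 of 10 macrophage, 5 of 10 T and NK cell, 3 of 7 B cell and 7 of 8 neutrophil markers. Of endothelial and stromal markers 3 of 8 were named, and of neuronal markers 1 of 8. Pecam1, which macrophages also express, was the 1 of 3 endothelial and stromal markers called in each library, and the 1 neuronal marker named had no call. Of all protein-coding named genes, 33.2%, 38.8%, 14.1% and 30.5% had a promoter peak. Macrophage markers, at 77.8%, 88.9%, 44.4% and 77.8%, were above this in every library. T and NK cell markers were above it in control 2 (40%) and CpG 1 (20%), and Pecam1, as 33.3% of its group, in all but control 2. Sequencing depth is unknown, because the lists give peaks and not reads.

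Protein tyrosine phosphatases remove phosphate from tyrosines and so reverse the work of tyrosine kinases. Receptor types span the membrane and present their phosphatase domains to the inside of the cell, non-receptor types are held in the cytosol or at inner membranes, and the small Ptp4a enzymes, also called PRL phosphatases, are anchored by a lipid tail. In macrophages they set the activity of Src family kinases, Syk, JAK kinases and the MAP kinases that carry signals from Fc, cytokine, adhesion and Toll-like receptors.

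The promoters of 5 members are shown because they cover the range of what was found: Ptp4a1 had a promoter peak in all 4 libraries, Ptprm only in those of CpG, Ptprj carried the most peaks of any member, and Ptpn22 and Ptprc had promoter peaks in 3 libraries. Each sequence is the 250 bases before the gene's start in the RefSeq promoter table of build GRCm38.p6, read 5′ to 3′ on the gene's strand, with every CG dinucleotide in capitals. The positions in that build are chr1:30949756-30950005 (minus strand) for Ptp4a1, chr17:67354460-67354709 (minus strand) for Ptprm, chr2:90580596-90580845 (minus strand) for Ptprj, chr3:103859545-103859794 (plus strand) for Ptpn22 and chr1:138175306-138175555 (minus strand) for Ptprc. No source used here gives the build of the peak lists, and their coordinates differ from these, so no peak was placed on these letters.
Ptp4a1: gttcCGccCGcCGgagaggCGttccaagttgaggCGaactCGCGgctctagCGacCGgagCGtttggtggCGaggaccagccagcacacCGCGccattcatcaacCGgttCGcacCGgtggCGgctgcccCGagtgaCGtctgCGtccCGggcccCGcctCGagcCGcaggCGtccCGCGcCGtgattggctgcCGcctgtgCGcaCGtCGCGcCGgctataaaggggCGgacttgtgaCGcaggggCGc
Ptprm: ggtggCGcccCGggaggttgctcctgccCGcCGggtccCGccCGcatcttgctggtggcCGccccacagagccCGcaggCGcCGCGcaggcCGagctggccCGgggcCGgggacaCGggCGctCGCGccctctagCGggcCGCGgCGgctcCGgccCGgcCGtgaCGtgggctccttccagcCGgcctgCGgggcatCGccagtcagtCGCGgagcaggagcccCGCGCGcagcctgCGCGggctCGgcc
Ptprj: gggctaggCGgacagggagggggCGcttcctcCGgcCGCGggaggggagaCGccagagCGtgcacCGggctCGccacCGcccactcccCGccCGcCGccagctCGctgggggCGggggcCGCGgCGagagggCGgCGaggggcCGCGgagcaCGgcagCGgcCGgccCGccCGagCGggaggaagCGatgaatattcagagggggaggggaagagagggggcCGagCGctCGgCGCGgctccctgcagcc
Ptpn22: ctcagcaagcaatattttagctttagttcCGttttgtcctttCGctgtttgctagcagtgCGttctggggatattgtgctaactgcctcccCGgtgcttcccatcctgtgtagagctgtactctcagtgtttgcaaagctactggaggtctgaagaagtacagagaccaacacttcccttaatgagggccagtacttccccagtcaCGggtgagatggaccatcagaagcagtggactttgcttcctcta
Ptprc: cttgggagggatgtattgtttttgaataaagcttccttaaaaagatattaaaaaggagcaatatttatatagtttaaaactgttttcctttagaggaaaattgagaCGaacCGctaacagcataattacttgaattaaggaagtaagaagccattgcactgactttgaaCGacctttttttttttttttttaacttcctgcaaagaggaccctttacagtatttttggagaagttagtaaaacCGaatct

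The first 3 sequences were dense in CG, with 37, 37 and 34 CG dinucleotides and a GC content of 71.2%, 81.2% and 79.2%. The promoters of Ptpn22 and Ptprc, genes used mainly in blood cells, held 5 and 4 CG dinucleotides at a GC content of 49.2% and 31.6%. All windows of the table had a median of 6 CG dinucleotides and 52.4% GC (32851 windows). Of the 30 members, 25 had a window, and Ptpn12, Ptpn2, Ptprv, Ptp4a3 and Ptprcap had none.

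Peaks lay nearest to 17, 17, 14 and 21 of the 30 members. The share of all named genes nearest to a peak was 64.0%, 72.0%, 43.1% and 61.5%, against 56.7%, 56.7%, 46.7% and 70% of the members. Members thus lay below all named genes in both control libraries and above them in both CpG libraries, where 1 gene moves a share of the 30 by 3.33 points. Ptp4a1, Ptp4a2, Ptpn1, Ptpn12, Ptpn2, Ptprj, Ptprm and Ptprs were nearest to a peak in all 4 libraries, and 10 members in 1 library only: Ptpn5, Ptpn6, Ptpn7, Ptpn14, Ptpn21, Ptpn23, Ptpre, Ptprn, Ptprtos and Ptpru.

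A promoter call means that the authors' annotation put at least 1 peak of the library in the class Promoter of that gene. By this measure 10, 8, 6 and 14 of the 30 members were called, or 33.3%, 26.7%, 20% and 46.7%. The background over all 20824 named genes was 24.1%, 28.6%, 10.4% and 22.2%. Many named genes are non-coding, and over the 11335 protein-coding ones the share was 33.2%, 38.8%, 14.1% and 30.5%, beside 35.7%, 28.6%, 21.4% and 46.4% of the 28 protein-coding members. The members' share was therefore near or below the protein-coding background in the control libraries and above it in both CpG libraries. With each list limited to its 13553 peaks of highest −log10 p, 20%, 20%, 20% and 23.3% of the 30 members were called. The background was not counted at that length. A promoter call was seen for 17 members in at least 1 library. The 13 members without a call in any library were Ptpn5, Ptpn13, Ptpn14, Ptpn18, Ptpn21, Ptprcap, Ptpre, Ptprf, Ptprn, Ptpro, Ptprr, Ptprtos and Ptpru.

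**Figure D1:**
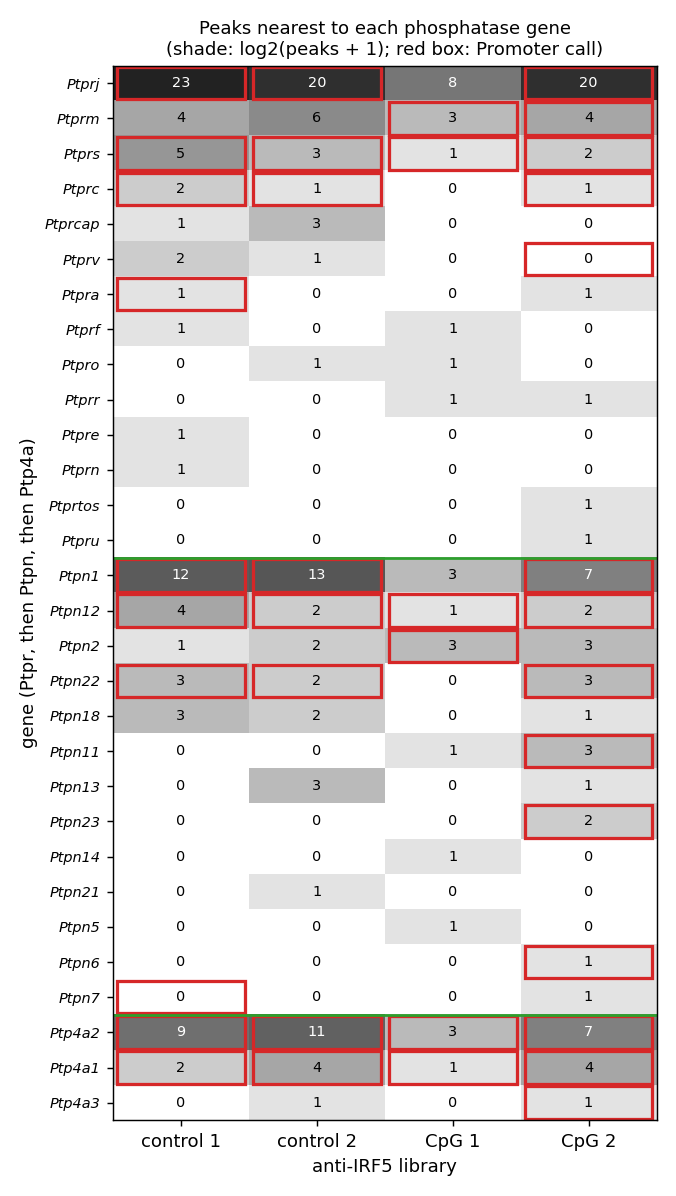
Peaks nearest to each of the 30 members (rows; Ptpr, then Ptpn, then Ptp4a) in the 4 anti-IRF5 libraries (columns); each cell prints the number of peaks, its shade is log2(peaks + 1), and a red box marks a promoter call. Ptprj has the darkest row with 23, 20, 8 and 20 peaks, and Ptp4a1, Ptp4a2, Ptpn12 and Ptprs are boxed in all 4 libraries.

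Among the receptors, Ptprj had the most peaks. It codes for CD148, a receptor phosphatase that acts on Src family kinases in myeloid cells and platelets. It was the gene nearest to 23, 20, 8 and 20 peaks, where the median gene with a peak had 1, 2, 1 and 1 and the 99th percentile was 12, 13, 6 and 9. Ordered by this count, Ptprj was at rank 15 of 13322, 23 of 14998, 24 of 8981 and 10 of 12803 genes with a peak. The gene spans 151 kb (chr2:90260098-90410991, minus strand, in the coordinates of the lists), and long genes can hold more peaks. Per 100 kb, 17.2, 16.6, 6.63 and 16.6 peaks had their centre inside Ptprj, against a median of 1.13, 1.53, 0.187 and 1.17 over the 3249 named genes of at least 50 kb. That placed it above 98.9%, 98.3%, 99.3% and 99.6% of those genes.

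The peaks over Ptprj overlapped between libraries. Peaks that overlapped by at least 1 bp in any libraries were merged into regions, which gave 32 regions nearest to Ptprj, of which 6 held a peak in all 4 libraries. The strongest of these lay in introns. The region at 2.19 kb from the gene start (chr2:90407298-90410300) had fold enrichments of 19.95, 22.2, 7.35 and 27.6 in the authors' lists. Fold enrichment is the authors' ratio of the pileup at a peak to its local background and can be ranked only within a list. Ranks, and the words strong and weak, refer to fold enrichment here unless −log10 p is named. In each list this region was above 99.4%, 97.9%, 88.1% and 99.1% of peaks.

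A region 6.41 kb into the gene (chr2:90403978-90405183) had fold enrichments of 10.8, 17.3, 8.21 and 23.3 and was above 93.7%, 95.9%, 92.8% and 98.5% of peaks in the lists. The region at 34.83 kb (chr2:90375561-90376759) had fold enrichments of 10.1, 18.4, 9.58 and 26.5, above 92.2%, 96.5%, 96.6% and 99% of peaks. A region close by, at 32.95 kb (chr2:90377616-90378474), reached 10.9, 9.33, 6.85 and 11.0, and its lowest within-list rank was 81.6%. These 4 regions ranked above 81.6% or more of the peaks in every list and were called in both conditions.

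The promoter peak of Ptprj ranked below its strongest intronic peaks and above many of the others in the control libraries. It was called in control 1, control 2 and CpG 2 with fold enrichments of 9.43, 8.09 and 3.38, ranking above 89.9%, 74.2% and 2.8% of the peaks of those lists, and was not called in CpG 1. Upstream of the gene, 2 further regions were called in both control libraries and in neither CpG library, at -3.10 and -9.21 kb, with fold enrichments of 4.83 and 6.34, and of 5.80 and 8.44. Within the gene, a region at 105.53 kb was also called in both control libraries only, with fold enrichments of 8.75 and 6.68. No region at Ptprj was called in both CpG libraries only.

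**Figure D2:**
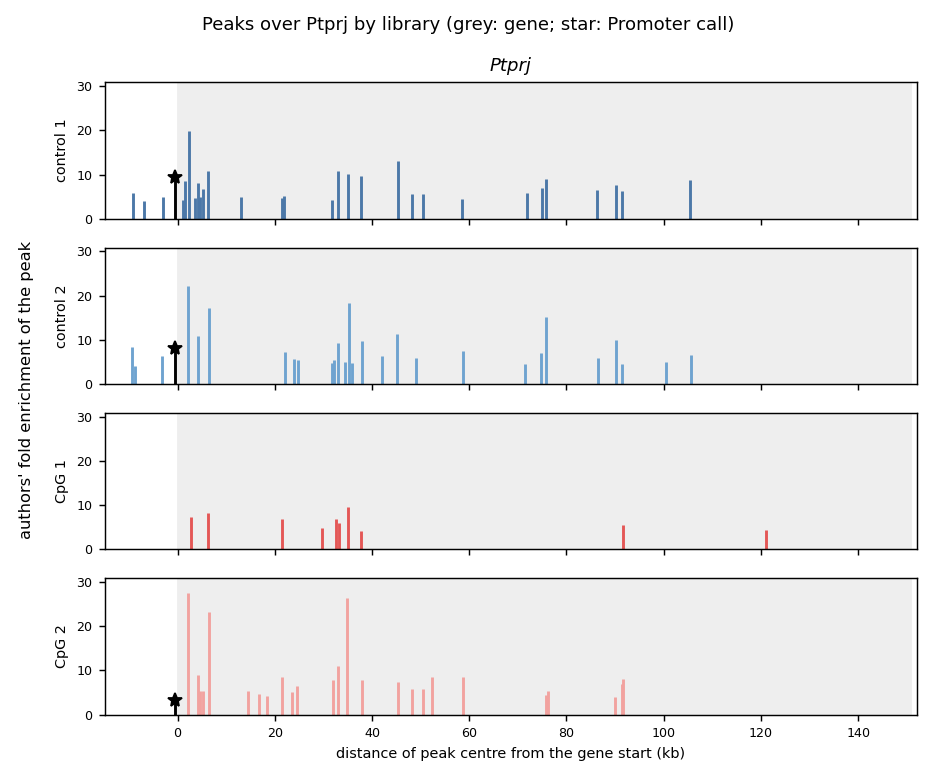
Peaks over Ptprj in each library, with the distance of the peak centre from the gene start in kb on the x axis and the authors' fold enrichment on the y axis; grey marks the gene and a star a promoter call. The tall bars at about 2.19, 6.41 and 34.83 kb recur in the 4 panels, while the promoter star is absent from CpG 1.

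Ptprm codes for a receptor phosphatase that binds its own kind on neighbouring cells, and it was the 1 member with a promoter call in both CpG libraries and in neither control library (3.33% of members, where 0.61% of all named genes were called so). Among protein-coding genes the shares were 3.57% of the 28 members and 0.812% of all named. The peak was centred -0.24 kb from the start in CpG 1 (chr17:67661608-67661785) and -0.14 kb in CpG 2 (chr17:67661398-67661779). Both calls overlapped, and no control peak of any class overlapped them. Within their lists they ranked above 96.1% and 77.3% of peaks. With 2 libraries per condition, no pattern of this kind can reach a p below 0.333 in an exact permutation test.

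In control 1, control 2 and CpG 2 the strongest peak of Ptprm lay elsewhere, and in CpG 1 the promoter peak was its strongest. An intronic region at 6.96 kb (chr17:67653951-67655025) was called in all 4 libraries with fold enrichments of 10.2, 23.3, 7.67 and 17.3, above 92.4%, 98.2%, 89.6% and 96.5% of peaks. Beyond these regions Ptprm, which spans 688 kb, was sparse: 0.582, 1.02, 0.145 and 0.582 peaks per 100 kb lay inside it, less than the median long gene in every library.

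**Figure D3:**
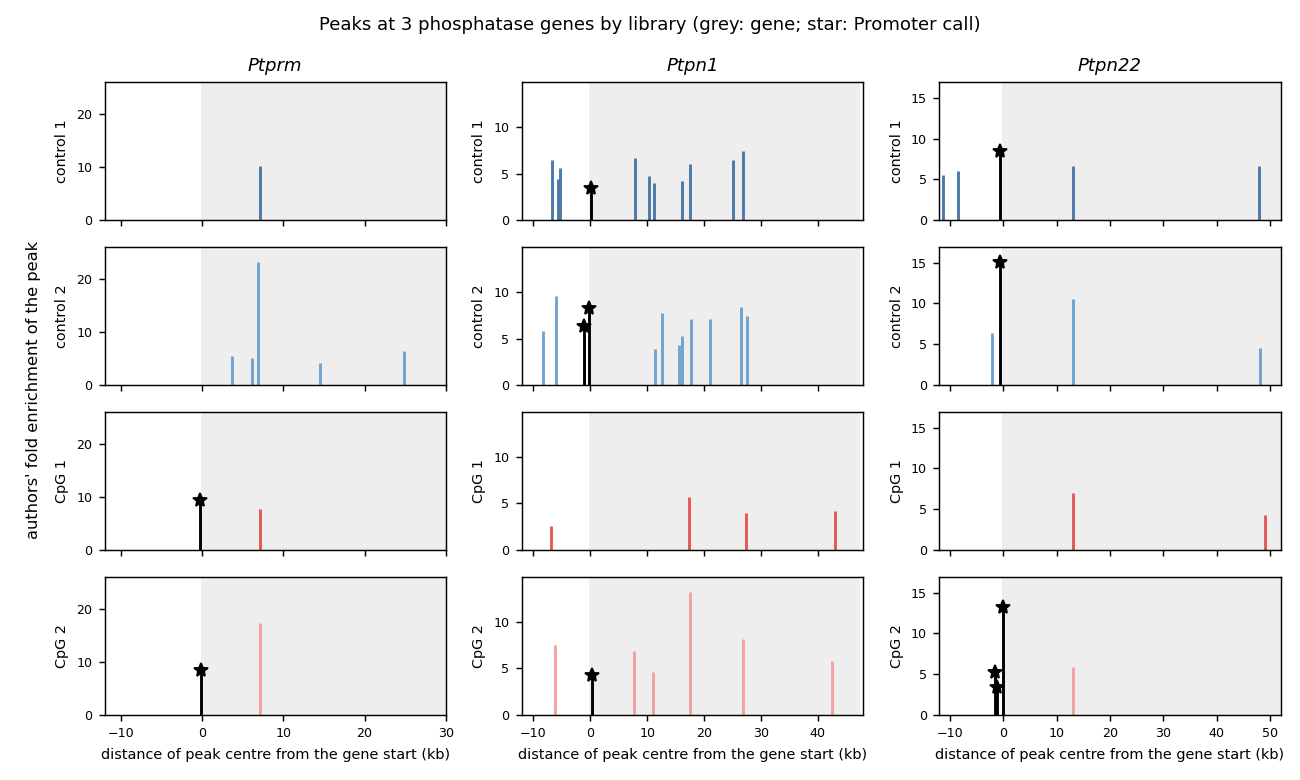
Peaks at Ptprm, Ptpn1 and Ptpn22 (columns) in each library (rows), with distance of the peak centre from the gene start in kb on the x axis and the authors' fold enrichment on the y axis; grey marks the gene, which for Ptprm runs past the right edge, and a star a promoter call. Ptprm has a star in both CpG rows and in no control row, and a bar at 6.96 kb in all 4 rows; the Ptpn22 bar at 12.99 kb also recurs in all 4 rows.

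Ptprs, a receptor for heparan and chondroitin sulfate chains, had a promoter call in all 4 libraries. The called peaks lay -1.91, -1.63, -1.90 and -1.72 kb from the gene start, and their fold enrichments were 6.16, 5.99, 4.0 and 6.92. They were of middling rank, above 60.2%, 48.5%, 18.3% and 63.3% of the peaks of each list. In all, 5, 3, 1 and 2 peaks lay nearest to Ptprs, so in CpG 1 the upstream peak was its single one.

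Ptprc codes for CD45, the abundant phosphatase of blood cells that removes the inhibitory phosphate of Src family kinases. Its promoter was called in control 1 with 2 peaks (fold enrichments 7.54 and 4.08), in control 2 with 1 (8.94) and in CpG 2 with 1 (5.85), and was not called in CpG 1. Inside the gene lay 5, 5, 2 and 2 peaks, most of them nearest to the non-coding gene A130071D04Rik. The 1 intragenic region present in all 4 libraries was at 16.96 kb (chr1:138085901-138087068), with fold enrichments of 7.07, 9.90, 8.21 and 18.0, and it ranked above 74.3%, 83.9%, 92.8% and 96.8% of peaks. Regions of Ptprc at 41.11 and 39.28 kb were called in both control libraries only, with fold enrichments of 4.52 and 4.78, and of 9.28 and 10.7. The latter ranked above 89.4% and 86.9% of peaks in the control lists. Ptprcap, whose product associates with CD45, was nearest to 1 and 3 peaks in control 1 and control 2 and to none in either CpG library, without a promoter call. These peaks formed 4 regions, each called in 1 library, so none was shared by both control libraries.

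Ptpre was the member most changed by how peaks were assigned to genes. It codes for a phosphatase with a membrane form and a cytosolic form made from an internal start, and it is closely related to Ptpra. By the nearest-gene rule it had 1, 0, 0 and 0 peaks and no promoter call. Yet 17, 14, 6 and 8 peaks had their centre inside its 149 kb, the most of any member after Ptprj. Nearly all lay nearer to the start of a non-coding gene, mainly 5830432E09Rik or Mir1962, than to that of Ptpre. At 11.4, 9.41, 4.03 and 5.38 peaks per 100 kb, Ptpre stood above 96.7%, 93.35%, 96.5% and 91.2% of the long genes.

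Inside Ptpre, 4 regions were called in all 4 libraries. The strongest, at 129.67 kb from the start (chr7:135268015-135269740), had fold enrichments of 9.66, 18.4, 9.80 and 18.4, above 90.8%, 96.5%, 96.8% and 97.0% of peaks. The region at 117.93 kb (chr7:135256616-135257662) had fold enrichments of 7.27, 12.3, 10.02 and 10.6, and that at 107.14 kb 8.0, 5.87, 8.66 and 9.69. The remaining region, at 43.62 kb, was weak in every list, with fold enrichments of 5.24, 4.51, 4.17 and 4.99. Near the start of Ptpre, the 1 peak was that nearest to it in control 1, 0.13 kb into the gene in its exon and 5′ UTR, with a fold enrichment of 3.82 that ranked above 6.8% of the list. Peak calls at Ptpre thus recurred across both conditions deep in the gene and not at its start.

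Ptpra, which activates Src kinases in many tissues, had a promoter call in control 1 alone, with a fold enrichment of 3.42 that ranked above 3.4% of that list. In CpG 2 a peak at -0.03 kb was given to its exon and 5′ UTR, with a fold enrichment of 4.49 that ranked above 15.6% of the list. Inside Ptpra lay 3, 5, 1 and 2 peaks, and those at 38.45 to 38.54 kb in control 1, control 2 and CpG 2 had fold enrichments of 7.19, 22.8 and 12.2. Ptpro, found on macrophages and kidney podocytes, had no promoter call and 4, 5, 1 and 1 peaks inside it. Of these, 2 regions at 158.47 and 159.77 kb were called in both control libraries and in neither CpG library. Ptprf, Ptprn, Ptprr, Ptprtos and Ptpru had at most 1 nearest peak per library and no promoter call, and the 1 region of Ptprr called in both CpG libraries only lay -29.28 kb from its start.

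Of the non-receptor genes, Ptpn1 had the most peaks. It codes for PTP1B, an enzyme held at the endoplasmic reticulum that acts on the insulin receptor and JAK2. It was nearest to 12, 13, 3 and 7 peaks, and 19 merged regions lay nearest to it, 2 of them in all 4 libraries. The intronic region at 17.69 kb (chr2:167790974-167792354) had fold enrichments of 6.07, 7.11, 5.72 and 13.3, above 58.8%, 65.2%, 67.9% and 92.9% of peaks. The other, at -6.11 kb upstream, had 6.50, 9.62, 2.58 and 7.53. Its promoter was called in control 1 (3.42), in control 2 with 2 peaks (6.34 and 8.34) and in CpG 2 (4.26), and not in CpG 1. Within introns, 2 weak regions at 11.26 and 16.22 kb were called in both control libraries only, with fold enrichments of 3.89 to 5.31.

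Ptpn2, the close relative of Ptpn1 that acts on JAK1 and STAT proteins, was nearest to 1, 2, 3 and 3 peaks. Of the 8 members nearest to a peak in all 4 libraries, it was the 1 with no fewer peaks in CpG 1 than in either control library. Its promoter call came from CpG 1 alone, from a peak of fold enrichment 3.50 that ranked above 8.5% of the list. Peaks just inside the start, at 0.02 and 0.03 kb in control 2 and CpG 2, had fold enrichments of 4.68 and 7.78 and were given to other classes of the gene. So a peak near the start was present in 3 libraries although the promoter call was made in 1.

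Ptpn6 and Ptpn11 code for SHP-1 and SHP-2, which dock on phosphorylated receptors through SH2 domains, the former mostly damping signals in blood cells and the latter mostly promoting the Ras pathway. Both had a promoter call in CpG 2 alone, with fold enrichments of 4.20 and 6.66 that ranked above 11.3% and 59.5% of that list. For Ptpn6 this was also the only peak nearest to it in any library. Inside Ptpn6 lay 6, 7, 1 and 4 peaks, nearest to Gm20531 or Gm15884, with fold enrichments up to 7.24, 6.43, 3.29 and 5.30, and none of its 8 intragenic regions was called in all 4 libraries. Ptpn11 had no nearest peak in either control library and 1 and 3 in the CpG libraries. These peaks formed 4 regions, each called in 1 library, so no region of Ptpn11 was shared by both CpG libraries.

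Ptpn12, Ptpn18 and Ptpn22 form a group of cytosolic enzymes with proline-rich tails. Ptpn12, which acts on adhesion adaptors, had a promoter call in all 4 libraries, with fold enrichments of 8.79, 6.50, 2.59 and 5.71 at -0.16 to -0.44 kb, above 87.1%, 57.0%, 1.3% and 41.0% of peaks. The call in CpG 1 was therefore among the lowest of its list by fold enrichment. Inside Ptpn12 lay 7, 7, 0 and 5 peaks, those around 20 and 25 kb being nearest to Gm43216. The strongest of them, at 19.91 kb in control 2, had a fold enrichment of 18.4.

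Ptpn22 codes for a blood cell phosphatase that works together with the kinase Csk. Its promoter was called in control 1 (fold enrichment 8.44), control 2 (15.1) and CpG 2 (5.29, 3.38 and 13.3 for 3 peaks), and not in CpG 1. The strongest of these ranked above 84.9%, 94.5% and 92.9% of peaks, so they were the highest-ranked promoter peaks among the non-receptor genes in control 2 and CpG 2. A region inside the gene at 12.99 kb (chr3:103779849-103780349), nearest to Gm43065, was called in all 4 libraries with fold enrichments of 6.68, 10.5, 6.91 and 5.83.

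Ptpn18, a phosphatase of blood cells that binds the adaptor Pstpip1, had no promoter call. Inside it lay 6, 6, 0 and 2 peaks over 16.0 kb. Its regions at 3.78 and 13.26 kb (chr1:34502028-34503209 and chr1:34511258-34512950) were called in both control libraries and in neither CpG library, with fold enrichments of 5.74 and 12.3, and of 12.3 and 11.7. The latter ranked above 96.1% and 89.6% of peaks in the control lists and was, with a region of Ptp4a2, among the strongest control-only regions of the members. The background library differed between conditions, and its part in such regions was not tested.

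Of the other non-receptor genes, Ptpn23, whose product sorts receptors at endosomes, had a promoter call in CpG 2 alone (3.76). Ptpn7 codes for a phosphatase of MAP kinases and lies head to head with Ptprv, their starts being 106 bp apart. Its promoter call in control 1 came from a peak of fold enrichment 4.58 nearest to Ptprv, and the promoter call of Ptprv in CpG 2 came from a peak of 5.70 nearest to Ptpn7. These peaks cannot be assigned to 1 of the 2 genes. Ptpn5, Ptpn13, Ptpn14 and Ptpn21 had between 0 and 3 nearest peaks in a library and no promoter call.

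Of the 3 Ptp4a genes, 2, 2, 2 and 3 had a promoter call. Among protein-coding named genes the share with a call was 33.2%, 38.8%, 14.1% and 30.5%. A single gene is 33.3% of this class, so its share cannot be compared with those of the other classes. Ptp4a1 was called in all 4 libraries by a peak -0.15 to -0.49 kb from its start with fold enrichments of 2.44, 4.09, 3.14 and 8.47. These ranked above 0.2%, 9.4%, 4.5% and 77.5% of peaks, so the recurring call rested on peaks near the bottom of 3 lists. In Ptp4a2 the promoter call came from peaks 8.62 to 8.73 kb into the gene (chr4:129713390-129713973), with fold enrichments of 4.56, 3.09, 4.98 and 9.90. Ptp4a3 was called in CpG 2 alone (5.84).

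Ptp4a2 was nearest to 9, 11, 3 and 7 peaks, of which most lay upstream of it and were classed as intergenic. These included peaks close to its start, at -0.67 and -0.13 kb in control 1 and -0.03 kb in CpG 2. A region at -21.58 kb (chr4:129682653-129684204) was called in all 4 libraries with fold enrichments of 7.75, 10.5, 6.67 and 13.3, above 80.1%, 86.5%, 82.2% and 92.9% of peaks, and another at -17.15 kb had 5.30, 6.12, 5.76 and 8.58. An intronic region at 9.54 kb was called in both control libraries and in neither CpG library, with fold enrichments of 11.6 and 11.0, above 95.3% and 88.0% of peaks. Of the peaks nearest to the Ptp4a genes, 63.6%, 68.8%, 50% and 58.3% were intergenic, against 26.8%, 28.3%, 36.8% and 28.6% of all peaks. Most of these intergenic peaks were nearest to Ptp4a2 and the rest to Ptp4a1, so the share describes Ptp4a2 more than the class.

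Promoter calls in all 4 libraries were made for 4 of the 30 members (13.3%), Ptp4a1, Ptp4a2, Ptpn12 and Ptprs, where 5.51% of all named genes were called so. Of the 28 protein-coding members 14.3% were called in all 4 libraries, against 7.76% of protein-coding named genes. Calls in CpG 2 alone were made for 5 members (16.7%), Ptp4a3, Ptpn6, Ptpn11, Ptpn23 and Ptprv, against 3.03% of all named genes. The call of Ptprv, which RefSeq lists as a pseudogene, came from a peak that cannot be assigned between it and Ptpn7. Among the 28 protein-coding members 4 (14.3%) had calls in CpG 2 alone, against 3.99% of protein-coding named genes. No member was called in control 1 and control 2 and missed in both CpG libraries, against 4.36% of all named genes and 6.06% of protein-coding ones.

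Receptor and non-receptor genes were called at similar rates at their promoters. The counts were 4, 3, 2 and 5 of 14 receptor genes (28.6%, 21.4%, 14.3% and 35.7%) and 4, 3, 2 and 6 of 13 non-receptor genes (30.8%, 23.1%, 15.4% and 46.2%). The receptor share minus the non-receptor share was -2.20, -1.65, -1.10 and -10.4 points, with a mean of -3.85 ± 4.42 (SD, n = 4 libraries), so the difference was smaller than its spread, and it was -7.69 points without Ptprj. Without Ptprcap, Ptprtos and Ptprv, the receptor share was 36.4%, 27.3%, 18.2% and 36.4%, and the mean difference was 0.699 points, with the opposite sign. Genes are not replicates of a class, so no test was made.

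**Figure D4:**
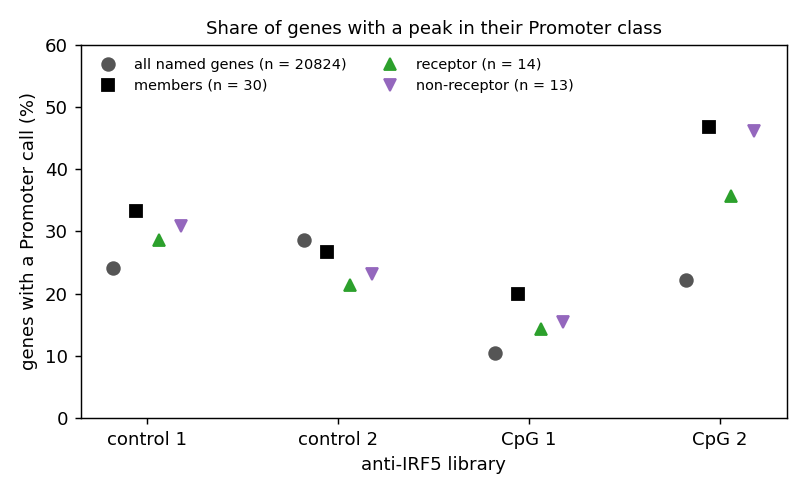
Share of genes with a promoter call (y axis, %) in each anti-IRF5 library (x axis) for all named genes, the 30 members, the 14 receptor genes and the 13 non-receptor genes. The receptor and non-receptor symbols lie close together in 3 libraries and are 10.4 points apart in CpG 2, where the members reach 46.7% and all named genes 22.2%.

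Where the peaks of receptor genes lay depended on Ptprj. Of the peaks nearest to receptor genes, 12.2%, 8.57%, 13.3% and 12.9% were in the gene's own Promoter class, against 13%, 16%, 20% and 33.3% for non-receptor genes. The receptor value was lower in each library, by a mean of -8.84 points ± 8.26 (SD, n = 4), about the size of its spread. Ptprj supplied 23, 20, 8 and 20 of the 41, 35, 15 and 31 receptor peaks, and without it the receptor share was 22.2%, 13.3%, 28.6% and 27.3%. The difference was then 9.18, -2.67, 8.57 and -6.06 points, with a mean of 2.26 ± 7.77 (SD, n = 4), so its direction rested on this 1 gene. The receptor genes are longer, with a median span of 94.5 kb against 55.9 kb, where all named genes had a median of 8.88 kb.

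Introns of the gene itself held 70.7%, 68.6%, 66.7% and 67.7% of the peaks nearest to receptor genes (61.1%, 53.3%, 28.6% and 27.3% without Ptprj) and 60.9%, 68%, 60% and 50% of those nearest to non-receptor genes. Over all members the share was 60%, 57.9%, 55.2% and 52.2%, against 25.4%, 24.8%, 20% and 23.1% of all peaks. Longer genes hold more intron, so members of at least 50 kb were set beside all named genes of at least 50 kb. Own introns then held 64.4%, 73.2%, 63.6% and 61.9% of the members' peaks and 49.9%, 51.4%, 47.9% and 48.2% of the others'. Without Ptprj, the share over all members was 51.9%, 50%, 38.1% and 36.2%, and over members of at least 50 kb it was 50%, 66.7%, 42.9% and 36.4%. Without this 1 gene the long members were thus above the other long genes in control 2, level with them in control 1 and below them in both CpG libraries.

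**Figure D5:**
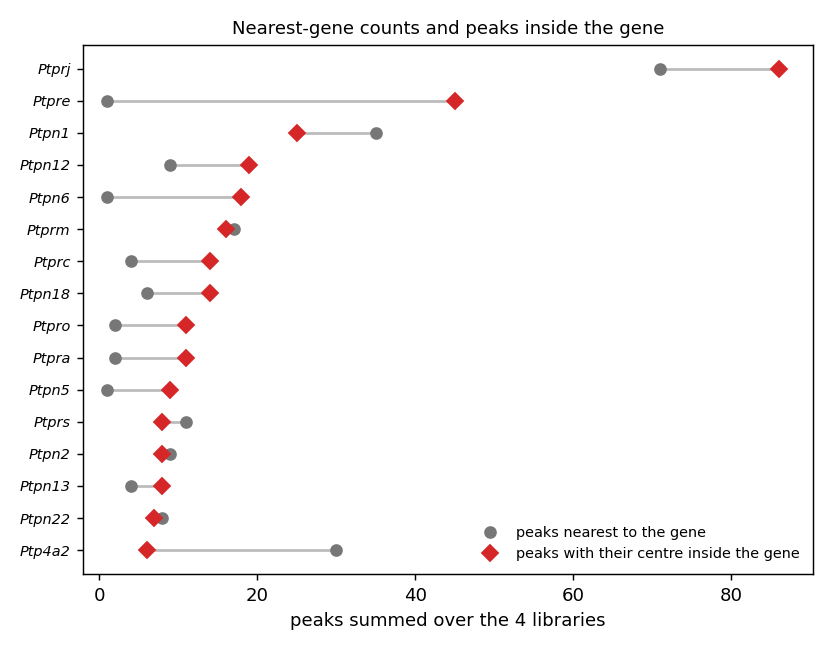
Peaks summed over the 4 libraries for 16 members (y axis), counted as nearest to the gene (grey circles) or with their centre inside the gene (red diamonds). Ptpre moves from 1 nearest peak to 45 inside the gene and Ptp4a2 from 30 to 6, while Ptprj leads by both counts with 71 and 86.

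Counted by position, 105, 112, 37 and 77 peaks had their centre inside a member gene, against 75, 76, 29 and 67 peaks by the nearest-gene rule. The additional peaks belonged mainly to Ptpre, Ptpn6, Ptprj, Ptpn12, Ptprc, Ptpra and Ptpro. Of 173 merged regions inside members, 16 (9.25%) were called in all 4 libraries, and these lay in 7 genes: Ptprj with 7, Ptpre with 4, and Ptp4a2, Ptpn1, Ptpn22, Ptprc and Ptprm with 1 each. Both control libraries alone shared 15 (8.67%) and both CpG libraries alone shared 0. Over all 55621 merged regions of the genome, 10.1% were called in all 4 libraries, 8.70% in both control libraries only and 1.15% in both CpG libraries only.

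Between conditions, fewer peaks lay nearest to members in both CpG libraries than in either control library. Peaks nearest to members numbered 75.5 ± 0.707 in control and 48 ± 26.9 in CpG (SD, n = 2 each), a difference of -27.5 with p = 0.333 (exact permutation test, two-sided, with 6 ways to assign the libraries and 0.333 as the smallest p possible). Per 1000 peaks of the list the numbers were 2.57, 2.04, 2.14 and 2.59, a difference of 0.0643 (p = 0.667, the same exact permutation test). The shares of the lists overlapped between the conditions. When each list was limited to its strongest 13553 peaks by −log10 p, 31, 30, 29 and 31 peaks lay nearest to members.

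The share of members with a promoter call was 30% ± 4.71 in control and 33.3% ± 18.9 in CpG (SD, n = 2 each), a difference of 3.33 points (p = 1, two-sided exact permutation test). The spread in CpG came from its 2 libraries lying on either side of both control values, at 20% and 46.7%. Without CpG 2 the difference was -10 points and without CpG 1 it was 16.7 points, so its sign depended on 1 library. Without CpG 1, the members called in CpG and in neither control library were 6, namely Ptp4a3, Ptpn6, Ptpn11, Ptpn23, Ptprm and Ptprv, and without CpG 2 they were Ptpn2 and Ptprm. Members called in both control libraries and not in CpG were 0 with all libraries and without CpG 1, and became Ptpn1, Ptpn22, Ptprc and Ptprj without CpG 2. The authors' lists of whole conditions likewise gave 4 such members, Ptpn1, Ptpra, Ptprc and Ptprj, and named Ptprs beside Ptprm as called in CpG only.

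Promoter windows of members with calls in 3 or 4 libraries had a median GC content of 71.2% (range 31.6% to 80.0%, n = 7) and a median of 34 CG dinucleotides. Members with calls in 1 or 2 libraries had 66.4% and 21.5 (n = 6), and those with none had 62.2% and 17.5 (n = 12). The ranges overlapped, since the CG-poor promoter of Ptprc was called in 3 libraries and that of a member without calls reached 81.2% GC. The element GAAANNGAA, to which interferon regulatory factors bind, was searched on both strands and found in 7.13% of all windows and in that of 1 member, Ptpn5, which had no promoter call. The PU.1 core GAGGAAGT was in 2.44% of all windows, the NF-kB motifs GGGACTTTC and GGGAATTTC in 0.524%, and the ETS core CCGGAAGT in 2.88%, with no match in a member's window. TGANTCA, the AP-1 motif, was in 6.75% of windows and in those of 1 member, Ptprtos. A match describes letters in the window and not a site in use.

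Genes that work with these phosphatases were counted in the same way, against the background of 24.1%, 28.6%, 10.4% and 22.2% of all named genes called. Over the protein-coding named genes this background was 33.2%, 38.8%, 14.1% and 30.5%. Of tyrosine kinases, whose products the phosphatases oppose, 6, 6, 2 and 3 of the 15 named had a promoter call (40%, 40%, 13.3% and 20%). None was called in all 4 libraries (background 5.51% of all named and 7.76% of protein-coding named genes). Fgr was called in both control libraries only (background 4.36% and 6.06%). Of receptors with ITIM motifs, the docking sites of SHP-1, and adaptors of the phosphatases, 10, 9, 6 and 8 of 17 were called (58.8%, 52.9%, 35.3% and 47.1%). Sirpa, Lilrb4a, Clec4a2, Pecam1, Fyb and Skap2 were called in all 4 (6 of 17, 35.3%), and Fcgr2b and Gab2 in both control libraries only. No gene of either list was called in both CpG libraries only (background 0.61% and 0.812%). Of the ITIM receptors, Sirpa, Lilrb4a, Clec4a2 and Pecam1 thus had a promoter call in every library. Ptpn6, which codes for SHP-1, had one in CpG 2 alone but held 6, 7, 1 and 4 peaks inside it.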

How the data were processed

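Anti-IRF5 CUT&Tag peak lists of 2 control and 2 CpG libraries, grouped by their labels, and the authors' 2 lists of whole conditions were used. Per the submitters' processing notes the tools were BWA 0.7.12 and fastp 0.20.0 for the reads, ChIPseeker, and MACS2 2.1.0; no source used here gives their settings or the genome build. Per the file headers each peak has the authors' pileup (a signal), their fold enrichment (a ratio), and the −log10 of its p-value and q-value, deposited as such; the lowest −log10 p was 5.00 to 5.02. Per the deposited file names, the lists of a condition were called against 1 IgG library of that condition, so the background follows the condition. Damaged headers were read from column order and values.

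Lines that only continued an annotation cell (875, 1017, 281 and 682) and peaks outside the 21 nuclear chromosomes (15, 17, 13 and 16) were left out. Each peak was given to its nearest gene as deposited, and its Promoter class to genes by their identifiers; peaks whose centre fell inside a gene were also counted. Depth is unknown, so no counting interval was given. Conditions were compared over libraries by two-sided exact permutation tests, and classes of genes by their values alone. Control and CpG libraries share numbers, but their deviations correlated at 0.0966 over 2 pairs, so no block was used.

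The members and gene lists were chosen with earlier results of these data known. Named with values were members called in all 4 libraries or in 1 condition only, the 5 with most peaks, the 5 highest-ranked shared regions and a fixed set of macrophage phosphatases; other genes were named after their values were seen. Promoter windows came from RefSeq (GRCm38.p6). Scripts ran in Python 3.11.15 with numpy 2.4.6, pandas 2.3.3 and matplotlib 3.10.9 and were tested on simulated lists. Alternatives were the strongest 13553 peaks per list by −log10 p, a fold enrichment of at least 6 and a peak within 1 kb of the start. Others were different member sets and leaving out each library. A further list of partner genes is not reported here.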

Additional observations from a re-analysis of the deposited data

How the results depend on the processing

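The lower number of peaks nearest to members in CpG kept its direction under all 8 alternatives, including leaving out Ptprj, which was chosen after seeing the data, but was only -0.5 peaks with lists of equal length. The lower share of receptor peaks in the Promoter class turned to 2.26 points without Ptprj, also added after seeing the data, and kept its direction under the other 7, although the 6-fold threshold left it 3 libraries, since CpG 1 then had no peak nearest to a non-receptor gene. With peaks of at least 6-fold enrichment, the difference in members with a promoter call turned to -5 points, the difference in peaks per 1000 to -0.0726 and the receptor minus non-receptor share to 0.824 points. With lists of equal length the difference per 1000 peaks turned to -0.0369, and the number of members called in both control libraries only rose from 0 to 2 (Ptprc and Ptprj). The receptor minus non-receptor share was 0.699 points without Ptprcap, Ptprtos and Ptprv, and -11.3 points with peaks nearest to the gene within 1 kb of its start. The authors' lists of whole conditions gave 2 members called in CpG only and 4 in control only. The causes were not tested.

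Leaving out 1 library in turn, the difference in members with a promoter call ranged from -10 to 16.7 points and was 0 without control 2. The difference in peaks per 1000 ranged from -0.200 to 0.329, members called in CpG only from 1 to 6, and those called in control only from 0 to 4. In a replicate block, the paired differences were 3.33 points (p = 1), -27.5 peaks (p = 0.5, the smallest possible with 2 pairs) and 0.0643 per 1000 peaks (p = 1, exact sign-flip permutation tests), so the block changed no call. Conditions with 2 libraries each limit every comparison, and CpG 1, with the shortest list, limits which members could be called in both CpG libraries.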

Other observations

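By fold enrichment, the members' promoter peaks were not uniformly strong within their lists. Their ranks by −log10 p, which can differ, were not computed. The median rank of the peaks in a member's own Promoter class was above 41.1%, 57.0%, 13.4% and 45.6% of the peaks of each list, and that of peaks in its introns above 41.4%, 52.9%, 66.2% and 44.6%. Over all named genes the promoter medians were 47.8%, 47.2%, 38.6% and 44.6%, and the intron medians 49.5%, 47.2%, 53% and 49.6%. In CpG 1, with 6 promoter peaks of members, the members' intron median of 66.2% fell to 40.6% without Ptprj, while their promoter median was 13.4% with or without it.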
